A study of Mus musculus with 36 samples.

Results

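Collagen chains are the polypeptides that assemble into the trimeric collagens, and the genes considered here are those whose symbols consist of Col, a collagen type number, the letter a and a chain number. The gene count matrix held 44 such genes among 55487 gene rows, and all 44 were followed through the 36 libraries of the series. They comprised 11 fibrillar chains, 9 fibril-associated chains, 6 basement membrane (type IV) chains, 6 beaded filament (type VI) chains, 5 transmembrane and other chains, 3 short network chains, 2 multiplexin chains and a pair of anchoring fibril or von Willebrand domain chains.

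Bulk RNA-seq was performed on C57BL/6 mice a few months old from the unmyelinated optic nerve (UON), which is the segment just behind the eye, from the myelinated optic nerve (MON) beyond the discarded transition zone, and from the retina. Mice were naive, received optic nerve crush (Crush; 3 days, 3D, or 2 weeks, 2W, before collection) or received a microbead injection into the anterior chamber that raises eye pressure (Glaucoma; 3D, 2W or 6 weeks, 6W). Each of the 18 groups held 2 libraries, 1 made from RNA of female mice and 1 from RNA of male mice, and a pool of mice gave all 3 tissues. The replicate is therefore a pool, sex cannot be told apart from pool, p-values rest on the spread between 2 pools a group, and the same naive libraries serve every comparison with naive in their tissue. Sections of this size also hold whatever sheath, vessel and sclera came with the nerve, and in bulk tissue fewer cells of a type and less RNA per cell cannot be told apart.

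Collagens form the scaffold of connective tissue. Fibrillar chains (types I, II, III, V and XI) make the rope-like fibrils of sheath, sclera and vitreous, fibril-associated chains decorate those fibrils, type IV chains make the sheet of every basement membrane, type VI chains make beaded microfilaments around cells, and the multiplexins Col15a1 and Col18a1 sit in or beside basement membranes. In the optic nerve, basement membranes line the vessels, the pial surface and the astrocyte endfeet, while fibrillar collagen belongs mainly to the sheath, the septa and the sclera. In the retina the best known collagens are those of the inner limiting membrane and vessels, and type II and IX collagen belong to the vitreous.

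The 6 type IV genes lie in 3 pairs whose members start next to each other and are read away from each other, and the pairs recur throughout the results, so the stretches between their starts are given first. In GRCm38, 71 bases separate the start of Col4a4 from that of Col4a3 on chromosome 1, and 1308 bases separate Col4a6 from Col4a5 on chromosome X, while on chromosome 8 the annotated starts of Col4a1 and Col4a2 overlap by 22 bases. Without stated strand information, reads from that overlap cannot be assigned to either gene. The stretch between Col4a4 and Col4a3 (chr1:82586850-82586920, minus strand), the bases before Col4a6 (chrX:141474077-141474326, minus strand) and those before Col4a5 (chrX:141475169-141475384, plus strand) read as follows, 5′ to 3′ and up to the base before the annotated gene, with matches to the GC box GGGCGG or the CCAAT box CCAAT, on either strand, in capitals (letters from the RefSeq promoter windows of GRCm38.p6).
Col4a4: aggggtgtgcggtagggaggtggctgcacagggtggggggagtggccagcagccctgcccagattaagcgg
Col4a6: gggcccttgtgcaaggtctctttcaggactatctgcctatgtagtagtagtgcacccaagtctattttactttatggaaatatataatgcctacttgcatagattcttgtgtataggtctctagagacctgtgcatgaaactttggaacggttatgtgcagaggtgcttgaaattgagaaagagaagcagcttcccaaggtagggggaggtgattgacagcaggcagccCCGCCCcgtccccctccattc
Col4a5: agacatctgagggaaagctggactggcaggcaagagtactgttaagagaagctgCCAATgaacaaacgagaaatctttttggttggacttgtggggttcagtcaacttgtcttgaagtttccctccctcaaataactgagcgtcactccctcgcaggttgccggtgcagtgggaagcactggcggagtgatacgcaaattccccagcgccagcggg
No match to the GC box, the CCAAT box or TATAAA lay in the 71 bases between Col4a4 and Col4a3, whose GC content was 69%. Of all 32851 promoter windows, 20.7% held a GC box, 13.3% a CCAAT box and 4.41% TATAAA in the 71 bases before the start, and 32.7, 33.8 and 12.4% in the 250 bases before it.

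Further sequences are given for Col11a1 (chr3:114030290-114030539, plus strand), Col5a3 (chr9:20815068-20815317, minus strand) and Col8a1 (chr16:57754738-57754987, minus strand). These chains were among the 6 called higher in MON at both times after crush, the others being Col4a1, Col6a1 and Col18a1. Matches are marked in the same way.
Col11a1: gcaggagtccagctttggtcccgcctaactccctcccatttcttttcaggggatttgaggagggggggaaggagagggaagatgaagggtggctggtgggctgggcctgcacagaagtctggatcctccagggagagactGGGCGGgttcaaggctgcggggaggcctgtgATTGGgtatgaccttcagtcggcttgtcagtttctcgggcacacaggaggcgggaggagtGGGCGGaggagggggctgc
Col5a3: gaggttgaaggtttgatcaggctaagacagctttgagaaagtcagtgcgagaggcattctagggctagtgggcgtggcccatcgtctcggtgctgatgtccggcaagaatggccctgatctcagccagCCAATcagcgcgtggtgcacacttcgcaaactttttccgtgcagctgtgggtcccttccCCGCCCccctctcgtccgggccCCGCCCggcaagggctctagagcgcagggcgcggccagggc
Col8a1: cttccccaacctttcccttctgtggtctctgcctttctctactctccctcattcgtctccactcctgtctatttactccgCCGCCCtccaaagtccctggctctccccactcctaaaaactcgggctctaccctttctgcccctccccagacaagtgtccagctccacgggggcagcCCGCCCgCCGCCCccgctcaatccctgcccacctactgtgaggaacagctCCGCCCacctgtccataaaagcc
These stretches held 2, 2 and 4 GC boxes, respectively, and Col11a1 and Col5a3 each held 1 CCAAT box; no matches overlapped. Among the 35 of 44 collagen genes with a RefSeq window, a GC box was present in 21 (60%), a CCAAT box in 13 (37.1%) and TATAAA in 5 (14.3%). Such matches describe the letters only.

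Depth was 16158723 to 78054205 counts per library, and the 2 naive MON libraries were the most unequal pair of that tissue, with 78054205 counts in the female pool and 17757595 counts in the male pool. Summed marker levels followed the tissue labels, given over all libraries in TPM, which scales transcript levels per length and to the library total. Oligodendrocyte markers were at 11822 to 39962 in MON, 843 to 11419 in UON and 36.7 to 66.5 in retina, and photoreceptor markers were at 48221 to 61616 in retina, at most 231 in UON and at most 91.4 in MON. Astrocyte markers lay at 9433 to 16464 in UON, 4758 to 15556 in MON and 1023 to 1372 in retina, and the Müller glia list, most of whose genes nerve glia also use, was likewise higher in both nerve regions (11095 to 37482 and 7878 to 31991) than in retina (2026 to 4025). Endothelial markers overlapped among UON (81.7 to 172), MON (37.7 to 178) and retina (73.8 to 118), pigment cell markers stayed at or below 45, and skeletal muscle markers at or below 35.9. Surface epithelium keratins reached 2366 in the male MON Glaucoma 2W library and 2936 in the female MON Glaucoma 6W library, against at most 10.8 in the other MON libraries, 171 in UON and 23.7 in retina. Within UON, the female Glaucoma 3D library had the highest oligodendrocyte sum (11419) and the male Crush 2W library the lowest (843).

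Collagen transcripts were most abundant in UON in every treatment. Summed over the 44 genes, their level in the 12 UON libraries was 948 to 2527 TPM (median 1507), in MON 267 to 1085 (median 495) and in retina 143 to 243 (median 168). Naive UON gave 1388 TPM in the female and 1483 in the male pool, naive MON 327 and 267, and naive retina 153 and 148, so naive UON carried 4.84 times the collagen level of naive MON (4.24 in female and 5.56 in male pools) and 9.54 times that of retina. UON and retina did not overlap in any library, whereas the highest MON library, at 2W after Crush, exceeded the lowest UON library.

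**Figure D1:**
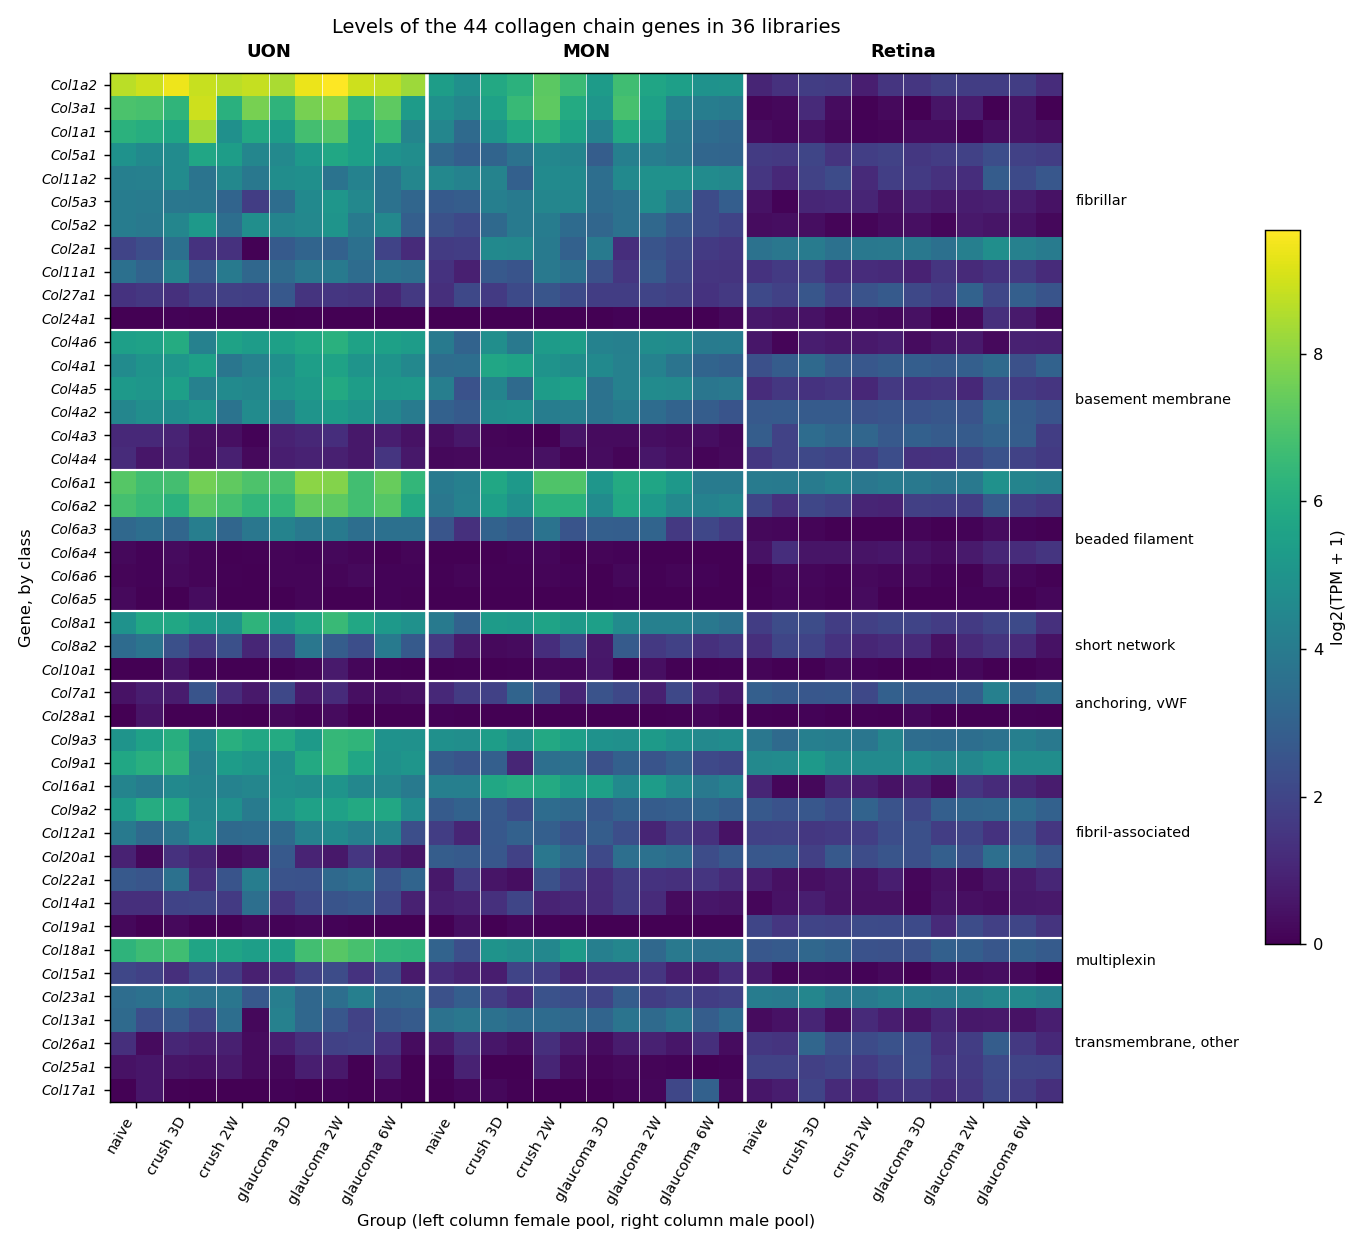
Level of each of the 44 collagen chain genes (rows, grouped by class and ordered by naive level) in each of the 36 libraries (columns, female then male pool of each group), as log2(TPM + 1). Most fibrillar, type IV and type VI rows are brightest in the UON columns, where the summed level is 948 to 2527 TPM, and darkest in retina, where it is 143 to 243 TPM.

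The tissues also differed in which collagens they carried. Fibrillar chains made up 50.2 and 50.5% of the collagen TPM of naive UON (female and male pool), 41.3 and 37% of naive MON, and 15.2 and 16.1% of retina. Fibril-associated chains took 11.9 and 14% in UON, 20.5 and 24.4% in MON, and 35 and 33.1% in retina, the reverse order. Type VI chains accounted for 18.6 and 13.7% in UON, against 10.1 and 13.9% in MON and 12.4 and 12% in retina, and type IV chains for 9.12 and 9.25%, 14.9 and 10.7%, and 12.8 and 13%. Col1a2, which encodes the α2 chain of type I collagen, headed both nerve lists with mean naive levels of 448 TPM in UON (31.2% of its collagen) and 34.3 TPM in MON (11.5%). It was followed in UON by Col6a1 (119), Col3a1 (117), Col6a2 (101) and Col18a1 (88.3), and in MON by Col9a3 (27.1), Col3a1 (24.3), Col11a2 (20.1) and Col16a1 (17.1). Retina was headed by Col9a1 (23.5 TPM, 15.6%), then Col23a1 (15), Col6a1 (14.9), Col2a1 (12.4) and Col9a3 (11.2). At a mean of at least 1 TPM, 31 of the 44 genes were present in naive UON, 32 in MON and 26 in retina, and at 100 TPM or more only 4, 0 and 0. Col10a1, Col28a1, Col6a5 and Col6a6 stayed below 1 TPM in all 36 libraries.

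The comparison of naive UON with naive MON asked which chains set the unmyelinated segment apart. Of 42 collagen genes with enough counts to be tested, 18 were higher and 1 was lower in UON (edgeR quasi-likelihood test; a gene was called where its adjusted p was below 0.05 and its log2 fold change above 1 or under -1), where 9.63% of all 23685 genes tested were called in either direction (4.83% higher and 4.8% lower). The median log2 difference was 1.67 over the 42 collagen genes and -0.06 over all genes, and 34 of the 42 were above 0. Counted by class, 6 of 11 fibrillar, 3 of 6 type IV, 3 of 6 type VI, 4 of 9 fibril-associated, 1 of 2 tested short network and 1 of 2 multiplexin chains were higher, and none of the 5 transmembrane and other chains was called. DESeq2, which the study used, called 21 higher and 2 lower, where it called 17% of all genes (8.49% higher and 8.5% lower). In a single fit of all 36 libraries, Col1a1, Col3a1, Col5a2, Col6a3 and Col8a2 kept their direction and were not called. The calls of Col4a1, Col4a6, Col20a1 and Col22a1 each needed at least 1 particular naive library, that of Col4a6 both MON libraries and the male UON library.

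Type I and III collagens are the main fibrillar proteins of sheath and sclera. Col1a2 was at 411 and 485 TPM in the female and male naive UON pools and at 40.8 and 27.8 in MON. Col1a1 stood at 71.2 and 64.9 against 20.4 and 9.16, and Col3a1 at 120 and 115 against 28.1 and 20.5. For each of these genes both UON pools lay above both MON pools. The log2 difference was 3.53 ± 0.29 (SE; edgeR adjusted p = 0.00146) for Col1a2, 11.6-fold, but 2.17 ± 0.29 (edgeR adjusted p = 0.00564) for Col1a1 and 2.15 ± 0.26 (edgeR adjusted p = 0.00392) for Col3a1. The median balance of the type I chains thus differed between the nerve regions. The Col1a2 level was 1.42 to 15.2 times that of Col1a1 in the UON libraries (median 7.72) and 1.33 to 3.44 times in MON (median 2.05). These ranges overlapped, the UON minimum being the male Crush 3D library, and the ratio was not tested. In retina, where both genes were low, it was 4.25 to 32.3 (median 8.88). Among the minor fibrillar chains that co-assemble with them, Col11a1 was higher by 2.83 ± 0.33 (edgeR adjusted p = 0.00324), from 1.70 and 0.807 TPM in MON to 11 and 7.55 in UON. Col2a1, the chain of cartilage and vitreous fibrils, was at 2.94 and 3.99 TPM in UON and 2.18 and 2.37 in MON, a difference of 0.41 ± 0.31 that was not called (edgeR adjusted p = 0.487).

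**Figure D2:**
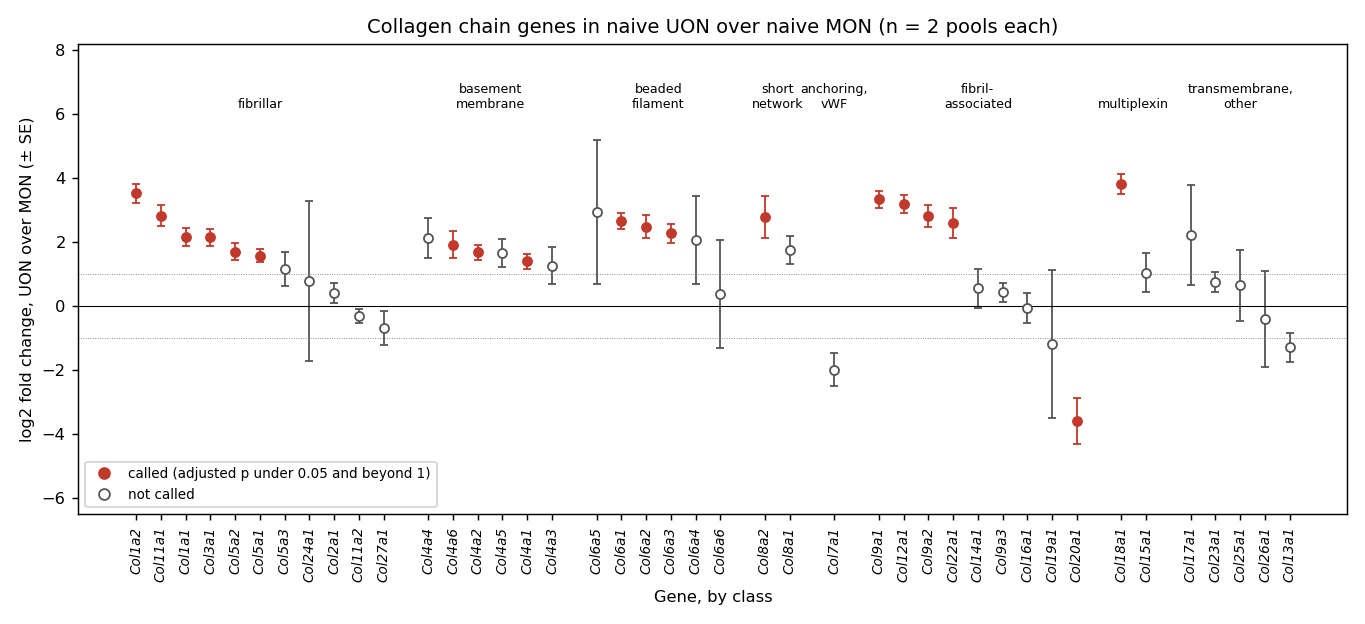
Log2 fold change of each tested collagen chain gene in naive UON over naive MON (points, ± SE, 2 pools in each region), grouped by class, with filled red points for the 18 genes called higher and the 1 called lower. Col18a1, at 3.83, is the highest point and Col20a1, at -3.58, the lowest.

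Col18a1, whose C-terminal fragment is endostatin, had the greatest log2 difference of the called genes. Its level was 78.0 and 98.5 TPM in naive UON and 7.51 and 3.97 in MON, 14.2-fold apart (log2 3.83 ± 0.31, edgeR adjusted p = 0.00139). Col15a1, the other multiplexin, was present at 3.15 and 2.65 TPM against 1.34 and 0.957 and was not called (1.05 ± 0.62, edgeR adjusted p = 0.361). Type VI collagen is built from 1 chain each of Col6a1, Col6a2 and usually Col6a3. Col6a1 was at 137 and 102 TPM in UON and 14.9 and 17.4 in MON (log2 2.68 ± 0.25, edgeR adjusted p = 0.00191), Col6a2 at 112 and 90.8 against 13.1 and 17.9 (2.48 ± 0.36, 0.00713) and Col6a3 at 8.65 and 10.4 against 4.93 and 1.54 (2.28 ± 0.29, 0.00461). All 3 were higher by 4.86- to 6.4-fold, and the later chains Col6a4, Col6a5 and Col6a6 were below 0.2 TPM in every naive nerve library.

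The fibril-associated chains split. Type IX collagen is a heterotrimer of Col9a1, Col9a2 and Col9a3, of which Col9a1 (53.4 and 68.3 TPM in UON, 5.87 and 4.74 in MON; log2 3.34 ± 0.26, edgeR adjusted p = 0.00139) and Col9a2 (39.1 and 62.8 against 5.83 and 7.25; 2.82 ± 0.33, 0.00327) were higher in UON. Col9a3 was at 31.3 and 45.9 TPM in UON and 28.1 and 26.2 in MON and was not called (0.43 ± 0.30, edgeR adjusted p = 0.436). Its level was therefore 3.89 to 27.1 times that of Col9a1 in the 12 MON libraries, 0.586 to 2.16 times in UON and 0.368 to 0.878 times in retina, with no overlap between MON and the others. Col12a1, a fibril-surface chain of tension-bearing tissue, was at 14.4 and 9.22 TPM in UON against 2.42 and 1.02 (log2 3.19 ± 0.28, edgeR adjusted p = 0.00156). The single chain lower in UON was Col20a1, at 0.924 and 0.156 TPM against 6.17 and 5.59 in MON (-3.58 ± 0.72, edgeR adjusted p = 0.0242). Over all 12 libraries it ranged from 2.62 to 13.3 TPM in MON and from 0.156 to 1.90 in 11 UON libraries. The remaining UON library, the female Glaucoma 3D pool with the highest oligodendrocyte sum, had 5.5. Col20a1 was also lower in naive UON than in naive retina, although the oligodendrocyte sums were lowest in retina. The part of oligodendrocytes in the Col20a1 level was not tested. Among the short network chains, Col8a2 was at 9.37 and 12.2 TPM in UON and 2.08 and 0.583 in MON (2.79 ± 0.65, edgeR adjusted p = 0.0385).

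In the type IV family, Col4a1 and Col4a2 form the network common to all basement membranes, Col4a3, Col4a4 and Col4a5 form that of specialised membranes such as the kidney filter, and Col4a5 pairs with Col4a6 in others. Col4a1 was at 24.2 and 31.3 TPM in naive UON and 9.91 and 10.2 in MON (log2 1.40 ± 0.23, edgeR adjusted p = 0.0113), and Col4a2 at 20.6 and 26.6 against 6.96 and 5.65 (1.69 ± 0.23, 0.00616). Col4a6 was at 43.1 and 44.8 TPM against 14.8 and 7.56 (1.93 ± 0.41, edgeR adjusted p = 0.0295), while its partner Col4a5, at 36.2 and 32.8 against 16.6 and 4.35, was not called (1.66 ± 0.44, edgeR adjusted p = 0.0608). The 2 naive MON pools were far apart for this pair. Col4a3 and Col4a4, the 71-base neighbours, were low in both regions, at 1.18 and 1.18 (Col4a3) and 1.27 and 0.512 TPM (Col4a4) in UON and at no more than 0.544 in naive MON.

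Naive retina held more Col4a3 and Col4a4 and less Col4a6 than the naive nerve pools. Col4a3 reached 6.16 and 2.73 TPM and Col4a4 1.94 and 2.72 in naive retina, whereas Col4a6 was at 0.491 and 0.104. Col4a1 was at 4.17 and 5.97 TPM there and Col4a2 at 5.56 and 5.74. In MON over retina, Col4a4 (-3.12 ± 0.63, edgeR adjusted p = 0.00856) and Col4a3 (-2.91 ± 0.62, 0.0108) were lower and Col4a6 higher (5.92 ± 0.51, 0.00017). In UON over retina, neither Col4a3 nor Col4a4 was called. The Col4a5 level was 0.51 to 0.989 times that of Col4a6 in UON, 0.575 to 1.13 times in MON and 1.9 to 19.1 times in retina, and the Col4a1 level 0.741 to 1.56, 1.24 to 2.02 and 0.729 to 1.54 times that of Col4a2. Retina thus did not overlap the nerve in the Col4a5 and Col4a6 ratio and overlapped it in that of Col4a1 and Col4a2.

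**Figure D3:**
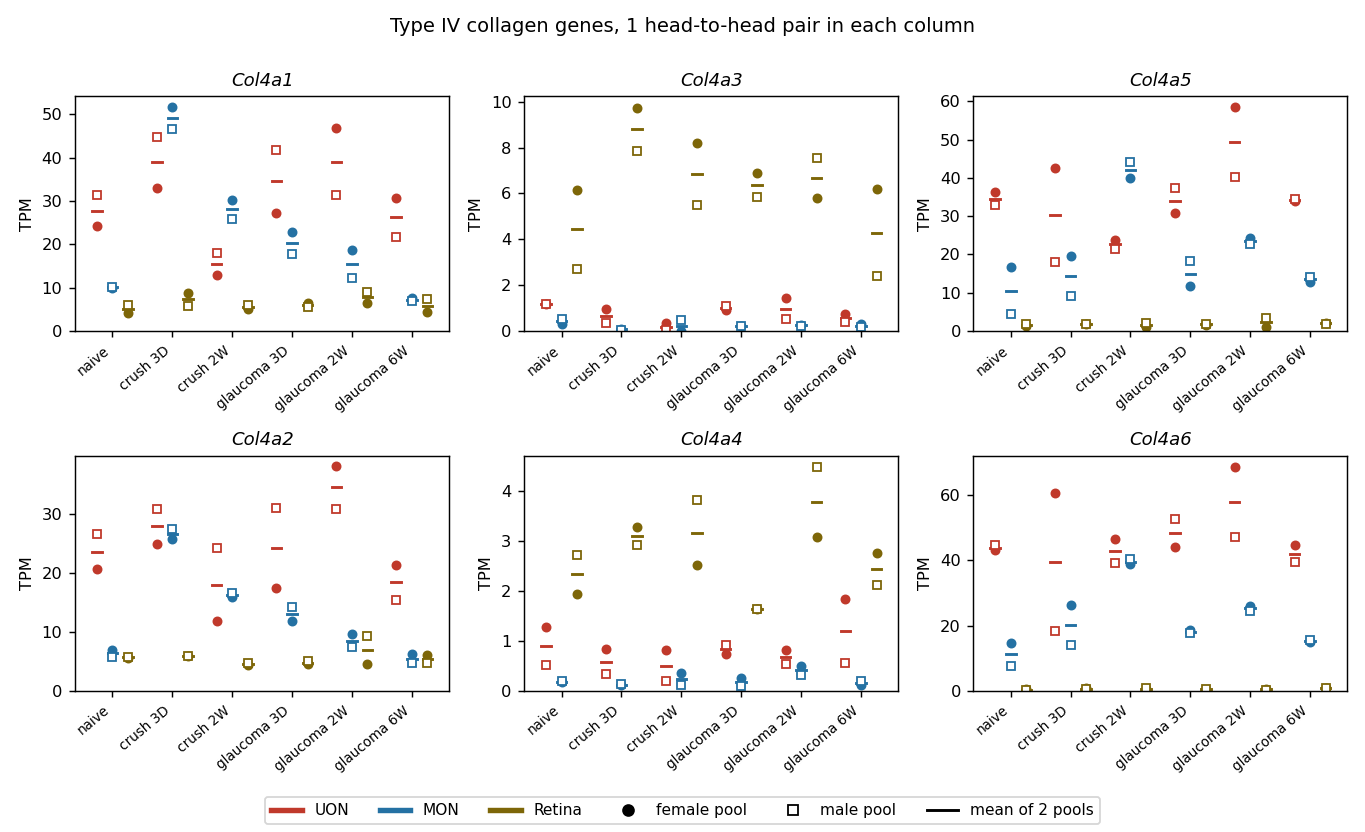
Levels in TPM of the 6 type IV collagen genes, with the 2 genes of a head-to-head pair in the same column, in UON, MON and retina by treatment and time. Circles are female pools, squares male pools and dashes the mean of 2 pools. Col4a3 and Col4a4 are highest in retina, and MON Col4a1 and Col4a2 peak 3D after Crush at 51.7 and 27.4 TPM.

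Against retina, 27 of 42 tested collagen genes were higher and 3 lower in naive UON, where 31.7% of all genes were called (18.2% higher and 13.5% lower), and 18 were higher and 4 lower in naive MON, where 27.6% were called (16.7% higher and 10.9% lower). These comparisons share the retina libraries. The medians over the collagen genes were 3.08 for UON and 0.60 for MON on the log2 scale, with medians of -0.17 and 0.00 over all genes. In UON over retina the greatest differences were those of the fibrillar chains Col3a1, Col1a2 and Col1a1, and in MON over retina those of Col3a1, Col1a1 and the type IV chain Col4a6. Col3a1 was at 0.100 and 0.165 TPM in naive retina and was higher by 10.01 ± 0.39 in UON (edgeR adjusted p = 2.49e-05) and by 7.85 ± 0.36 in MON (2.8e-05). Col1a1 was at 0.222 and 0.134 TPM in retina, higher by 8.90 ± 0.41 in UON and 6.73 ± 0.38 in MON, and Col1a2 was at 1.02 and 1.63, higher by 9.12 ± 0.37 and 5.58 ± 0.32. In UON over retina, Col4a6 (7.84), Col6a3 (6.79), Col5a3 (6.42), Col5a2 (6.19) and Col6a2 (5.78) followed. In MON over retina, Col4a6 (5.92) lay above Col1a2, which was followed by the transmembrane chain Col13a1 (5.57), Col16a1 (5.42), Col5a3 (5.26) and Col6a3 (4.51). Of these chains, Col6a2 was at 3.05 and 1.61 TPM in naive retina and Col1a2 above 1 TPM in both pools, and the others were below 1 TPM.

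Chains called higher in retina were few, but others were higher there without a call. Col19a1 was at 1.25 to 3.71 TPM in the retina libraries and at most 0.182 in UON and 0.284 in MON. Col25a1 was at 1.91 to 3.96 TPM in retina and at most 0.759 in UON and 1.02 in MON. Col2a1 was at 11.7 and 13.1 TPM in naive retina, above all 4 naive nerve libraries, and was lower in UON (log2 -1.54 ± 0.32, edgeR adjusted p = 0.0082) and in MON (-1.95 ± 0.32, 0.00345). Col9a1 was at 22.3 and 24.6 TPM and lower in MON (-1.62 ± 0.24, edgeR adjusted p = 0.00218), but its UON level of 53.4 and 68.3 was above that of retina. Col20a1 (-3, edgeR adjusted p = 0.0157) and Col7a1, the anchoring fibril chain (-2.32, 0.0111), were lower in UON than in retina. Col18a1, which differed 20.7-fold between UON and retina, did not reach the threshold between MON and retina (0.55, edgeR adjusted p = 0.192), nor did Col6a1 (0.63, 0.0919).

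Summed markers of fibroblasts and meninges, of mural cells and of astrocytes stood in the same order as the summed collagens across the naive tissues, highest in UON and lowest in retina. The cartilage and sclera list was highest in UON but no higher in MON than in retina. Astrocyte markers summed to 14168 and 16456 TPM in naive UON, 10975 and 7952 in MON and 1178 and 1183 in retina. The fibroblast and meningeal list (12 of 12 genes found) summed to 1607 and 1601 TPM in naive UON, 615 and 763 in MON and 62 and 39 in retina, where Lum, Dpt, Thbs2, Slc22a6, Aldh1a2 and Foxc1 were under 1 TPM in all 12 libraries. The mural list of 9 genes summed to 638 and 846 TPM in naive UON, 82.7 and 110 in MON and 36 and 41 in retina, with Myh11 under 1 TPM in all libraries of all 3 tissues. The cartilage and sclera list of 6 summed to 513 and 814 in UON, 31.8 and 33.3 in MON and 32.2 and 39.9 in retina, with its defining cartilage genes Acan and Matn1 under 1 TPM in all UON libraries. The part of these cell types in the collagen differences was not tested.

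Within UON, the type I and III genes varied widely between pools. Col1a1 ranged from 20.3 TPM in the male Glaucoma 6W library to 325 in the male Crush 3D library (median 60.9), and Col3a1 from 39.1 to 491 in the same libraries (median 117). Col1a2 ranged from 308 to 815 (median 458), lowest in the same Glaucoma 6W library but highest in the female Glaucoma 2W library. The fibroblast and meningeal sum was 860 TPM in the male Glaucoma 6W library, 2788 in the male Crush 3D library and 3158 in the male Crush 2W library, the highest of the 12. Its part in the type I and III levels was not tested.

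**Figure D4:**
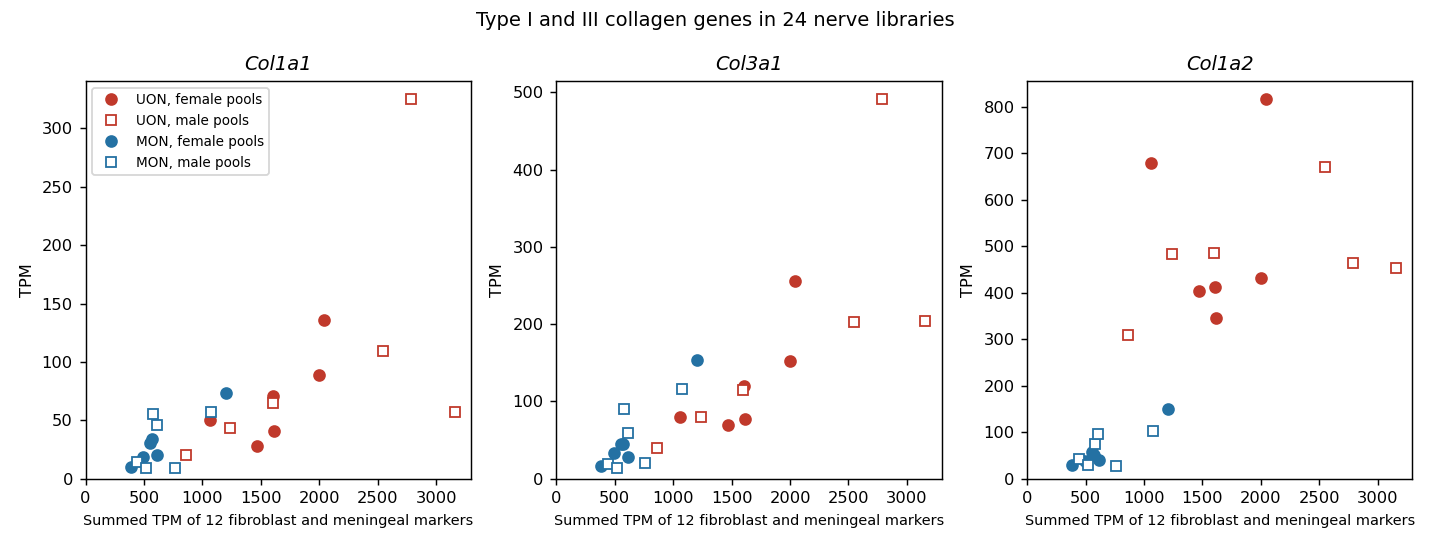
Level of Col1a1, Col3a1 and Col1a2 in TPM (vertical axes) against the summed TPM of 12 fibroblast and meningeal markers (horizontal axes) in the 24 nerve libraries; filled circles are female pools and open squares male pools. Col1a1 and Col3a1 are highest in the male UON Crush 3D library (325 and 491 TPM), while Col1a2 is at 463 TPM there, near its UON median of 458.

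Crush was compared with naive in each tissue to describe the change in each region. The study places the crush on MON itself. In that region a local wound therefore cannot be told apart from a response to axon injury. Calls among the collagens were found in MON. At 3D, 9 of 39 tested collagen genes rose and none fell, where 4.26% of all genes were called (3.61% higher and 0.655% lower). At 2W, 8 of 39 rose and none fell, where 2.72% were called (2.13% higher and 0.595% lower). The median log2 change of the 39 was 0.72 at 3D and 1.22 at 2W, against -0.01 and 0.05 over all genes, with 25 and 33 of the 39 above 0. Summed collagen TPM was 650 and 657 at 3D and 1085 and 841 at 2W, which were 2.2 and 3.24 times the naive mean of 297 ± 42.7 (SD, n = 2). DESeq2 called 18 collagen genes at 3D, 14 higher and 4 lower, where it called 12% of all genes (7.35% higher and 4.62% lower), and 19, all higher, at 2W, where it called 9.08% (6.01% higher and 3.07% lower).

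These counts depended on both naive MON libraries. Without the female naive MON library no collagen gene was called at 3D or 2W, and without the male naive MON library 1 was called at 3D (Col2a1) and none at 2W. The 2W count was 15 without the male 2W library, where 7.36% of all genes were called, and 15 without the sex term, where 4.76% were. Calls over all genes went the same way, from 721 higher to 14 and 148 at 3D and from 425 higher to 7 and 37 at 2W.

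The type IV chains of the common network were highest at 3D. In MON, Col4a1 was at 9.91 and 10.2 TPM in the female and male naive pools, 51.7 and 46.6 at 3D and 30.2 and 25.8 at 2W. Col4a2 was at 6.96 and 5.65, then 25.7 and 27.4, then 16.0 and 16.5. All crush libraries lay above both naive libraries for both genes, which were called on these same libraries. Col4a1 rose by 2.36 ± 0.26 at 3D (edgeR adjusted p = 0.00912) and by 1.44 ± 0.25 at 2W (0.0379), and Col4a2 by 2.02 ± 0.26 at 3D (0.0122), with 1.22 at 2W short of the threshold (0.0565). The difference between 2W and 3D itself was -0.91 for Col4a1 (edgeR adjusted p = 0.196) and was not called. Col4a6 was at 14.8 and 7.56 TPM in naive MON, 26.5 and 14.0 at 3D and 38.9 and 40.4 at 2W, and rose at 2W (1.80 ± 0.33, edgeR adjusted p = 0.0406). Its partner Col4a5 had 16.6 and 4.35, then 19.7 and 9.14, then 39.9 and 44.2 TPM, which was not called (1.83 at 2W, edgeR adjusted p = 0.0916).

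Among the type VI chains, the levels of Col6a1 and Col6a2 were highest at 2W in both pools, and those of Col6a3 in the female pool only. Col6a1 was at 14.9 and 17.4 TPM in naive MON, 53.4 and 37.1 at 3D and 128 and 128 at 2W, which lay within its naive UON values of 102 and 137. It rose by 1.42 ± 0.31 at 3D (edgeR adjusted p = 0.0485) and 2.85 ± 0.32 at 2W (0.0138). Col6a2 was at 13.1 and 17.9, then 43.0 and 27.6, then 73.8 and 70.8 TPM, and rose at 2W (2.10 ± 0.34, edgeR adjusted p = 0.0338). Col6a3 was at 4.93 and 1.54, then 7.20 and 5.70, then 12 and 4.77 TPM, so its male pool was lower at 2W than at 3D, and it was not called at 3D (0.72 ± 0.43, edgeR adjusted p = 0.388) or at 2W (0.81 ± 0.42, 0.417). No type VI chain was called between the times, where 2W over 3D was 1.43 for Col6a1 (edgeR adjusted p = 0.13), 0.98 for Col6a2 (0.288) and 0.09 for Col6a3 (0.962).

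Of the fibrillar chains, Col2a1 rose at 3D and Col5a3 and Col11a1 at both times, whereas types I and III and the other chains of types V and XI were not called. Col11a1 went from 1.70 and 0.807 TPM in naive MON to 5.45 and 4.67 at 3D and 14.0 and 11 at 2W, a rise of 1.97 ± 0.34 (edgeR adjusted p = 0.0252) and 3.23 ± 0.35 (0.0138). Col2a1 was at 2.18 and 2.37, then 23.4 and 21.2, then 14.4 and 6.94 TPM. Its rise of 3.34 ± 0.41 at 3D was the greatest of the called collagens (edgeR adjusted p = 0.0114), and 1.96 at 2W was just short (0.0513). Col5a3 was at 5.74 and 6.27, then 17 and 14.8, then 20.7 and 21.3 TPM, rising by 1.36 ± 0.26 (edgeR adjusted p = 0.0357) and 1.67 ± 0.27 (0.0319). Its relatives Col5a1 (0.24 at 3D, edgeR adjusted p = 0.704; 1.33 at 2W, 0.0612) and Col5a2 (1.49, 0.084; 1.49, 0.101) were not called. Col11a2 had -1.3 at 3D, opposite in sign to Col11a1 (edgeR adjusted p = 0.0796), and 0.18 at 2W (0.87). Col1a2 had 40.8 and 27.8 TPM in naive MON, 56.4 and 73.6 at 3D and 149 and 96.2 at 2W, with 1.70 at 2W at the edge of the threshold (edgeR adjusted p = 0.0503). Col1a1 had 20.4 and 9.16, then 30.8 and 55.4, then 73.5 and 46.2 TPM, and Col3a1 28.1 and 20.5, then 45.4 and 90.5, then 154 and 59.3. At 2W their log2 changes were 1.93 (edgeR adjusted p = 0.091) and 2.01 (0.0976), with the female and male pools far apart for Col3a1.

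The remaining calls belonged to 3 other classes. Col18a1 was at 7.51 and 3.97 TPM in naive MON, 30.2 and 26.1 at 3D and 21.2 and 37.3 at 2W, and rose by 2.27 ± 0.38 (edgeR adjusted p = 0.0235) and 2.29 ± 0.39 (0.0353). Col8a1, a short network chain of vessel walls and of the membrane under the corneal endothelium, was at 14.7 and 7.34, then 39.0 and 35.5, then 47.7 and 37.4 TPM, rising by 1.82 ± 0.30 (edgeR adjusted p = 0.0229) and 1.94 ± 0.31 (0.0308). Col16a1, a fibril-associated chain, was at 17.2 and 17 in naive MON, 53.1 and 62.5 at 3D and 59.7 and 40.4 at 2W, and rose at 3D (1.80 ± 0.31, edgeR adjusted p = 0.0239). No crush library of these genes overlapped the naive libraries, which their having been called on the same libraries largely fixed. Of all 849 genes called higher in MON after Crush, 836 at 3D and 803 at 2W had both pools above the naive pool of their sex. Between 2W and 3D in MON, no collagen gene was called by edgeR (0.075% of all genes were; 18 of 39 had an unadjusted p under 0.05, 14 of them higher at 2W, against 12.5% of all genes, and DESeq2 called 11, against 5.77% of all genes), and the smallest adjusted p was that of Col22a1 (2.75, edgeR adjusted p = 0.0943). Without the female 2W library 9 collagens were called in that comparison, where the share of all genes called was 6.25%.

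**Figure D5:**
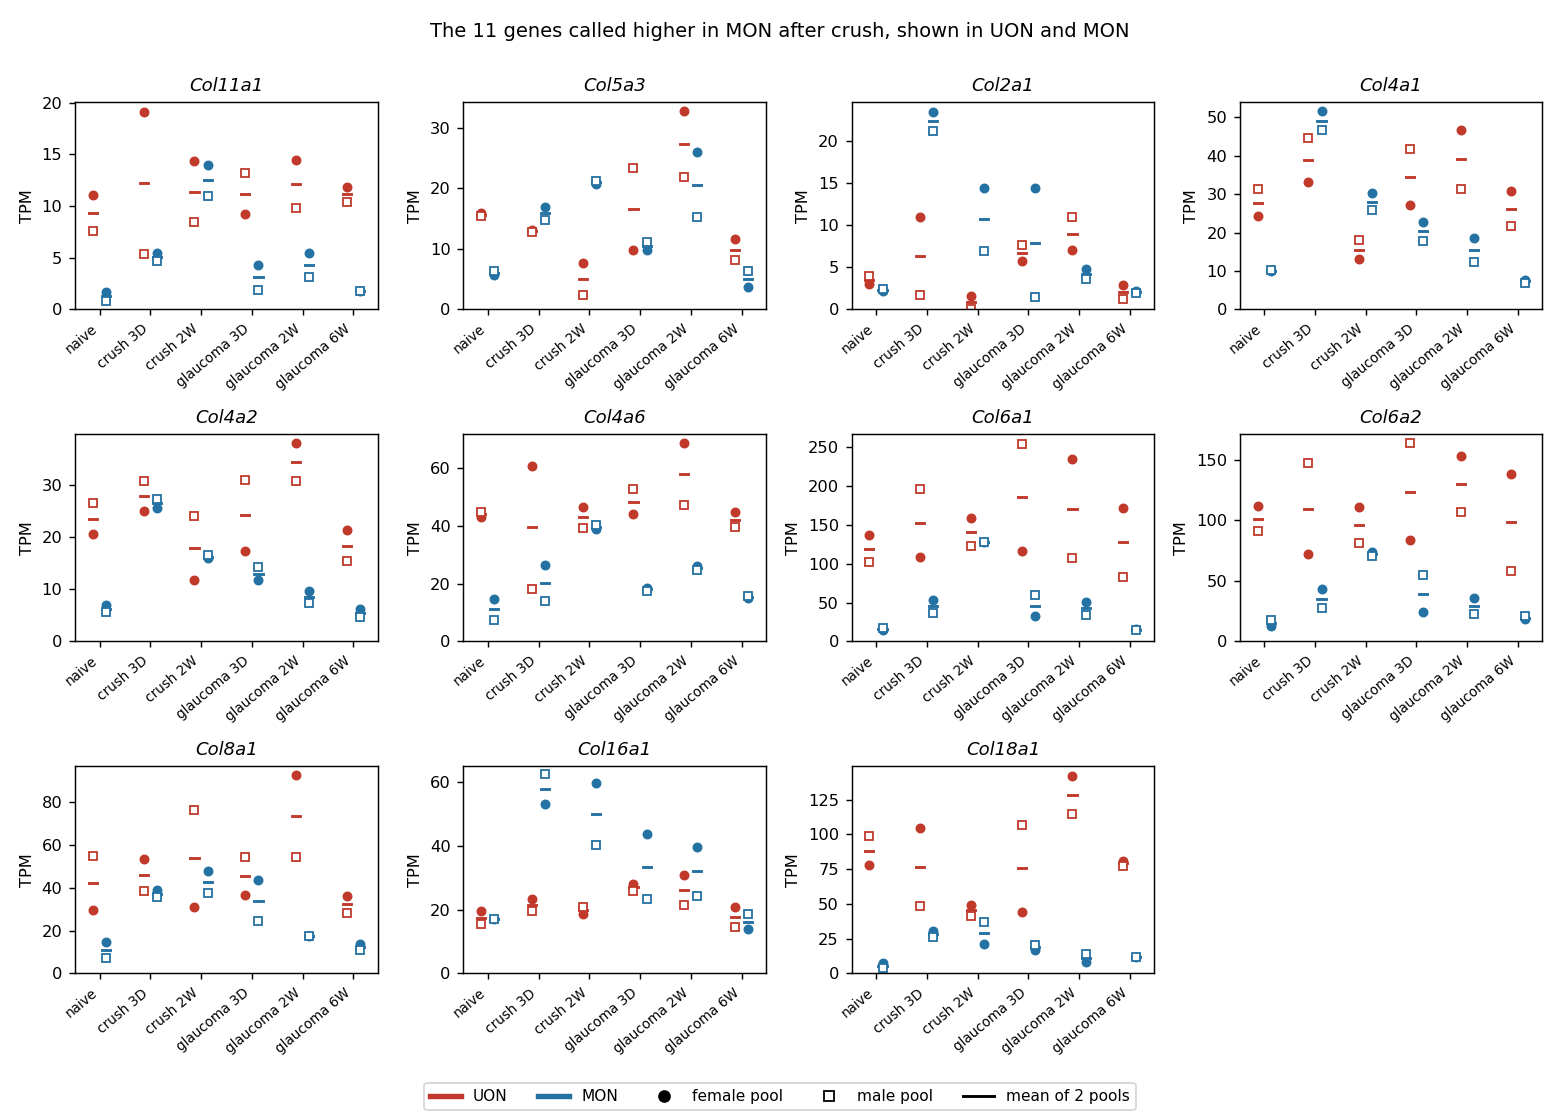
Levels in TPM of the 11 collagen genes called higher in MON after Crush at 3D or 2W, by treatment and time, in UON (red) and MON (blue); circles are female pools, squares male pools and dashes their mean. In MON, Col6a1 reaches 128 TPM in both pools at 2W after Crush, while Col4a1 is highest at 3D (51.7 and 46.6 TPM).

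Summed marker levels also differed between these MON groups. Microglia and macrophage markers (8 of 8 found, all above 1 TPM) summed to 725 and 791 TPM in naive MON, 2277 and 2911 at 3D and 4578 and 2356 at 2W, and over all libraries to 436 to 1699 in UON and 28.2 to 90.3 in retina. Mural markers went from 82.7 and 110 to 244 and 208 and then 280 and 228, and endothelial markers from 75.8 and 74.1 to 147 and 178 and then 37.7 and 88.4. Fibroblast and meningeal markers were at 615 and 763, then 551 and 580, then 1204 and 610, so that the 3D sums lay below the naive ones. The cartilage and sclera list was at 31.8 and 33.3, then 49.3 and 12.8, then 144 and 161, with Acan and Matn1 under 1 TPM in all 3 groups. Oligodendrocyte markers were at 39962 and 27256, then 24747 and 17870, then 11822 and 13878. The part of these cell types in the collagen rise was not tested.

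In UON no collagen gene was called after Crush by edgeR. At 3D none of 40 passed and no gene of any kind was called (0%), with 1 collagen at an unadjusted p under 0.05 (3.07% of all genes) and none called by DESeq2 (1.02% of all genes). At 2W none of 40 passed, with 0.0281% of all genes called and 6 collagens at an unadjusted p under 0.05 (9.27% of all genes). DESeq2 called 3 lower, namely Col2a1, Col4a3 and Col8a2, where it called 2.72% of all genes (1.17% higher and 1.55% lower). Col4a3 was at 1.18 and 1.18 TPM in naive UON and 0.329 and 0.054 at 2W (-3.11 ± 0.86, edgeR adjusted p = 0.488). Col8a2 was at 9.37 and 12.2 and then 4.2 and 1.03 (-2.10 ± 0.59, edgeR adjusted p = 0.488). Summed collagen TPM was 1715 and 2097 at 3D and 1255 and 1396 at 2W, which were 1.33 and 0.923 times the naive mean. Both 3D libraries lay above the naive pools of 1388 and 1483, and the 2W libraries did not. Col4a1 was at 33.1 and 44.7 TPM at 3D and 13.0 and 17.9 at 2W, against 24.2 and 31.3 in naive UON, and the log2 difference of 2W over 3D was -1.11 ± 0.30 (edgeR adjusted p = 0.656). That comparison called none of 40 collagens (0.00468% of all genes; 5 at an unadjusted p under 0.05, against 5.5% of all genes; DESeq2 called 1, Col2a1, against 1.74%).

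Whether UON and MON responded differently to Crush was tested by the difference of the 2 responses. Because the crush is on MON, region and nearness to the wound cannot be told apart in it. The main fit held sex as covariate and did not pair the UON and MON libraries of the same mice. A block of mouse pools, which pairs them, also called no collagen. Of 25011 genes it called 8 higher and 2 lower at 3D, and 18 and 5 at 2W. Neither time gave a called collagen by edgeR (none of 42 at 3D and at 2W, against 0.012% and 0% of all genes), although 11 collagens at 3D and 17 at 2W had an unadjusted p under 0.05, against 6.93 and 10.9% of all genes, and DESeq2 called 3 and 7, against 1.49 and 3.33% of all genes. Without the female UON Crush 2W library edgeR called 8 at 2W, where 4.58% of all genes were called. At 2W the median difference was 1.36 over the 42 collagens and 0.105 over all genes on the log2 scale, and 32 of the 42 were positive. A positive value means a higher log2 change in MON than in UON, which a rise in MON or a fall in UON can give. For Col2a1 the changes over naive were 1.96 in MON and -3.21 in UON. The 7 genes of the DESeq2 call were Col11a1, Col18a1, Col2a1, Col4a1, Col4a5, Col5a3 and Col6a1, and their edgeR adjusted p lay between 0.146 and 0.321. The greatest of these differences were those of Col2a1 (4.11 ± 1.40), Col5a3 (3.11 ± 0.56) and Col18a1 (3.00 ± 0.51). At 3D the DESeq2 calls were Col18a1 (2.43 ± 0.50, edgeR adjusted p = 0.261), Col4a1 (1.79 ± 0.43, 0.311) and, lower in MON than in UON, Col23a1 (-2.06 ± 0.56, 0.408).

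Glaucoma was compared with naive at 3D, 2W and 6W to follow the response to raised eye pressure. In MON, none of 41 collagens was called at any time by edgeR, and no gene of any kind was (0% at each time). At 3D, 2W and 6W, 12, 8 and 7 collagens had an unadjusted p under 0.05, against 8.07, 8.78 and 4.91% of all genes, and DESeq2 called 6, 5 and 0, against 2.35, 2.71 and 0.255%. Without the male 6W library 1 was called at 6W, where 0.151% of all genes were, namely Col17a1, an epithelial transmembrane chain, which was at 7.04 TPM in the remaining, keratin-rich female library and at most 0.197 in the naive and 6W male libraries. Summed collagen TPM was 448 and 693 at 3D, 541 and 412 at 2W and 281 and 277 at 6W, which were 1.92, 1.61 and 0.94 times the naive mean. Both pools were above both naive pools at 3D and 2W, while at 6W they lay between the naive values of 267 and 327. At 3D, Col8a1 was at 43.6 and 24.4 TPM (log2 1.61 ± 0.29, edgeR adjusted p = 0.354), Col18a1 at 16.9 and 20.5 (1.6 ± 0.31, 0.354) and Col6a1 at 32.5 and 59.7 (1.37 ± 0.33, 0.385). At 2W, Col5a3 was at 25.9 and 15.2 (1.57 ± 0.35, edgeR adjusted p = 0.295) and Col11a1 at 5.44 and 3.13 (1.40 ± 0.35, 0.345). By 6W, Col4a1 was at 7.65 and 6.88 and Col6a1 at 15.3 and 15.2, near or below their naive levels, while Col18a1 was at 11.5 and 11.9 (0.73 ± 0.31, edgeR adjusted p = 0.849).

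In UON none of 43 collagens was called at any Glaucoma time by edgeR (0% of all genes each time), with 3, 3 and 1 at an unadjusted p under 0.05, against 3.87, 3.57 and 2.01% of all genes, and none called by DESeq2, which called 0.528, 0.295 and 0.148% of all genes. Summed collagen TPM was 1195 and 2103 at 3D, 2527 and 1546 at 2W and 1531 and 948 at 6W, so the female and male pools were far apart at each time and neither was always the higher. The difference between the MON and UON responses to Glaucoma gave no call among 44 collagens at any time (0% of all genes), with 3, 3 and 1 at an unadjusted p under 0.05, against 5.86, 6.18 and 3.1% of all genes, and none by DESeq2, which called 0.274, 0.548 and 0.149%.

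The injuries were also compared directly at matched times. In MON at 3D none of 42 collagens was called by edgeR (0.0162% of all genes; 8 at an unadjusted p under 0.05, against 10.4% of all genes; DESeq2 called 3, against 3.26%), and Col4a1 had the smallest adjusted p, with 51.7 and 46.6 TPM after Crush and 22.9 and 17.8 in Glaucoma (1.28 ± 0.20, edgeR adjusted p = 0.181). Without the female Glaucoma 3D library 2 were called there, and 0.466% of all genes. At 2W none of 42 was called (0.0485%; 16 at an unadjusted p under 0.05, against 7.51% of all genes; DESeq2 called 6, all higher after Crush, against 1.76% of all genes, 0.783% higher and 0.975% lower), with a median of 0.76 over the collagens and 35 of 42 above 0. Col11a1 (1.83 ± 0.33, edgeR adjusted p = 0.178) and Col6a1 (1.64 ± 0.32, 0.222) were among those 6. In UON none of 43 was called at 3D (0%; none at an unadjusted p under 0.05, against 1.07% of all genes; none by DESeq2, against 0.0286%) or at 2W (0.0418%; 5 at an unadjusted p under 0.05, against 10.2%). At 2W DESeq2 called 3 lower after Crush, where it called 2.53% of all genes (0.892% higher and 1.64% lower), and edgeR called 3 without the female Crush 2W library, where 3.07% of all genes were called. Col5a3 had the smallest adjusted p there, at 7.58 and 2.40 TPM after Crush and 32.7 and 21.8 in Glaucoma (-2.19 ± 0.49, edgeR adjusted p = 0.303).

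No collagen gene was called in retina after either injury. Summed TPM was 207 and 169 at 3D and 152 and 174 at 2W after Crush, and 156 and 143, 167 and 243, and 203 and 172 at 3D, 2W and 6W of Glaucoma. In these 5 comparisons with naive, none of 42 collagens was called by edgeR, where 0.0221, 0.313, 0.00429, 0 and 0.00858% of all genes were called, respectively. The collagens with an unadjusted p under 0.05 numbered 8, 5, 2, 5 and 6, against 6.34, 8.99, 6.09, 6.29 and 5.67% of all genes. DESeq2 called 1, Col5a3, higher at 3D after Crush, where it called 0.425% of all genes higher and 0.224% lower (0.649% in all) and edgeR 0.0176% and 0.00441%, and it called no collagen in the other 4 comparisons, against 1.49, 0.684, 0.474 and 0.517% of all genes. Col5a3 was at 0.392 and 0.061 TPM in naive retina and 1.08 and 1.14 at 3D after Crush (2.58 ± 0.69, edgeR adjusted p = 0.561).

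Collagen chains need hydroxylation, folding, processing and cross-linking before they form a matrix, and cells sense them through receptors. Of 20 genes for hydroxylation, folding and secretion, 7 were higher in naive UON than MON (4.83% of all genes were) and none lower (4.8%), of 13 processing and cross-linking genes 5 were higher and 2 lower, and of 9 tested receptors 3 were higher. The greatest differences were in Tll2, a tolloid-like protease (-3.47 ± 0.70, edgeR adjusted p = 0.0245), Pcolce2, an enhancer of procollagen cleavage (-2.83 ± 0.25, 0.00161), and Adamts3, which trims procollagen (2.70 ± 0.51, 0.0199). Over retina, 14, 7 and 7 genes of the 3 lists were higher in UON (1 processing gene lower), where 18.2% of all genes were higher and 13.5% lower, and 11, 9 and 7 in MON (2 processing genes lower), where 16.7% were higher and 10.9% lower. The prolyl hydroxylase subunit P4ha3 led both (7.72 and 7.26 on the log2 scale), followed in UON by the collagen uptake receptor Mrc2 (6.93) and the collagen chaperone Serpinh1 (6.46) and in MON by Adamts3 (-5.62) and Tll2 (5.19). After Crush in MON, 1 of the 43 genes (2.33%) rose at 3D, the cross-linking enzyme Loxl2 (1.43 ± 0.27, edgeR adjusted p = 0.0323), which is below the 3.61% of all genes called higher. At 2W 3 of the 43 (6.98%) rose, where 2.13% of all genes did, namely Mrc2 (2.38 ± 0.38, 0.032), the inhibitory collagen receptor Lair1 (1.54 ± 0.27, 0.0382) and the lysyl hydroxylase Plod2 (1.31 ± 0.26, 0.0472). No other injury comparison called a gene of these lists by edgeR.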

How the data were processed

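Libraries were made with an ultra-low-input kit from RNA of mice of the same sex pooled in equal amounts, sequenced in pairs of reads, aligned by the authors to GRCm38 with HISAT2 2.2.1 and quantified with StringTie 1.3.0 on a Gencode annotation; strand-specific counting was not stated. The authors deposited estimated counts per gene, which StringTie derives from coverage, and per library FPKM, TPM and mean coverage per base. In some deposited FPKM and TPM columns a few values lay just below 0, so these columns were treated as scores, with negative values set to 0. Coverage was used only to match files to count columns, and all 36 columns matched best the file of their own sample. Transcript counts were not used. Levels are TPM, which are scaled per length, and with 2 pools a group the SD and SE describe pool spread only.

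Tests used edgeR 4.0.16 (R 4.3.3): quasi-likelihood F test, TMM scaling, genes with at least 10 counts in enough libraries and 15 in all, Benjamini-Hochberg adjustment over all genes tested, and a call at an adjusted p under 0.05 with a log2 fold change beyond 1. Each fit held the naive and treated groups of a tissue and treatment, or the 3 naive tissues, with sex as covariate, as in the study. Because a pool gave all 3 tissues, the sex term is also the replicate block of shared mice in the naive fit; in the injury fits the naive and treated pools of a sex are different mice and the term covers sex only. Direct comparisons of injuries used all groups of a tissue, and the differences of response used both nerve regions. Alternatives were DESeq2 1.42.0, DESeq2's size factors, no low-count filter, no sex term, no fold limit, a single fit of all libraries, a block of mouse pools, and leaving out each library. On counts simulated with the same dispersion for all genes and no difference between pools, the calls recovered most of the larger known changes. The spread between the real pools was not simulated, so this does not measure how reliable the calls are in these data. Between 39 and 44 members passed the count filter, depending on the fit; Col10a1, Col24a1 and Col28a1 most often did not.

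Described one by one were Col1a1, Col1a2, Col2a1, Col3a1, Col4a1 to Col4a6, Col6a1 to Col6a3, Col15a1 and Col18a1 in naive tissue, up to 8 called members per direction and comparison by log2 fold change, and up to 3 called genes of the hydroxylation, processing and receptor lists. Further genes (Col5a3 at 3D, Col9a3, Col4a3, Col5a1, Col5a2, Col6a3, Col8a2 and Col11a2 after Crush, those called only by DESeq2 or without a library, and those of the direct comparisons and Glaucoma) were picked after their values were seen. The members and lists, marker lists included, were chosen with earlier results of these data known. Col10a1 lies within a gene on the opposite strand, so its low counts are uncertain. Sequences came from RefSeq windows of GRCm38.p6, which 35 of 44 members had; figures used matplotlib 3.10.9.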

Additional observations from a re-analysis of the deposited data

Results flagged for a closer look

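For 4 genes at 2W after Crush and 1 gene at 3D, both MON pools lay above and both UON pools below the naive pool of their own sex, among the 11 collagen genes called higher in MON after Crush (4 of 11 at 2W, 36.4%, and 1 of 11 at 3D, 9.09%). The MON direction was fixed by the choice of these genes. Of all 849 genes called higher in MON after Crush at either time, 13% (110) showed the same pattern at 2W and 8.36% (71) at 3D, and of the 39 collagens tested 8 (20.5%) and 1 (2.56%) did, against 6.73 and 4.83% of all 19988 genes. The difference of the responses, MON minus UON on the log2 scale, was 3.00 for Col18a1 (edgeR adjusted p = 0.146), 4.11 for Col2a1 (0.321), 2.03 for Col4a1 (0.147) and 3.11 for Col5a3 (0.146) at 2W, and 1.49 for Col5a3 at 3D (0.617). None passed the edgeR test of the difference, whereas DESeq2 gave adjusted p of 0.000124, 0.0497, 0.00968 and 0.000354 at 2W and 0.314 at 3D. Both responses use the naive libraries of their own region. In UON at 2W, Col5a3 was at 7.58 TPM in the female and 2.40 in the male pool against 15.9 and 15.4 in naive UON, and Col18a1 at 49.0 and 41.6 against 78.0 and 98.5. Col2a1 was at 1.58 and 0.038 there, and the male library with 0.038 also had the lowest oligodendrocyte sum of UON, 843 TPM, and the highest fibroblast and meningeal sum, 3158 TPM; their part in these values was not tested.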

How the results depend on the processing

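The counts of called collagens in the naive comparisons (19, 30 and 22) moved by less than 1.5 times under every alternative run. With DESeq2 the count became 18 and 19 for MON Crush at 3D and 2W, 3 for UON Crush 2W, 1 for retina Crush 3D, 6 and 5 for MON Glaucoma 3D and 2W, 1 and 11 for Crush 2W over 3D in UON and MON, 3 for Crush over Glaucoma in UON at 2W, 3 and 6 for the same in MON at 3D and 2W, and 3 and 7 for MON minus UON after Crush at 3D and 2W. Without the low-count filter it became 18 and 19 for MON Crush, 1 for MON Glaucoma 3D, 8 for MON Crush 2W over 3D, 1 for Crush over Glaucoma in UON at 2W, 2 and 9 for the same in MON at 3D and 2W, and 4 and 9 for MON minus UON after Crush. In that setting 5.41 and 3.8% of all genes were called for MON Crush 3D and 2W. Over all genes it called 49 higher and 9 lower of 40498 for MON Glaucoma 3D, and 558 and 420 of 38991 for MON Crush 2W over 3D. For Crush over Glaucoma it called 51 and 70 of 42006 in UON at 2W, and 163 and 193 of 42944 in MON at 3D. The MON counts at 2W were 146 and 158. For MON minus UON after Crush it called 242 and 133 of 43400 at 3D, and 467 and 148 at 2W. Without the sex term, which is a replicate block of the same mice in the naive fit alone, MON Crush 2W gave 15, and Col4a6 lost its call in naive UON over MON (adjusted p = 0.0747). Size factors of DESeq2, calling by adjusted p only, the single fit of all libraries and the replicate block of mouse pools, each run where it applied, moved no count by over 1.5 times. No gene called in the main fit reversed its direction under an alternative, and directions of uncalled genes were not counted. The cause of the other shifts was not tested. In the single fit the adjusted p for naive UON over MON was 0.161 for Col1a1, 0.342 for Col3a1, 0.0796 for Col5a2, 0.118 for Col6a3 and 0.0652 for Col8a2. Leaving out 1 library at a time gave 17 to 24 calls for naive UON over MON, 28 to 33 over retina and 19 to 26 for MON over retina, 0 to 13 and 0 to 15 for MON Crush at 3D and 2W, 0 to 9 for MON Crush 2W over 3D, 0 to 1 for MON Glaucoma 6W, 0 to 3 and 0 to 2 for Crush over Glaucoma in UON at 2W and MON at 3D, 0 to 8 for MON minus UON after Crush 2W, and 0 in all other injury comparisons. With 2 pools a group, a missed threshold does not show an unchanged gene, and counts as low as those of Col6a4 to Col6a6, Col10a1, Col24a1 and Col28a1 allow no statement.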

Other observations

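Col17a1, which anchors epithelial cells to their basement membrane, was at 3.17 TPM in the male MON Glaucoma 2W library and 7.04 in the female MON Glaucoma 6W library, and at most 0.197 in the other 10 MON libraries. These are the libraries with surface epithelium keratin sums of 2366 and 2936 TPM; in retina, where that sum was at most 23.7, Col17a1 ranged from 0.49 to 3.21 TPM.

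The male retina Glaucoma 2W library had the highest collagen sum of the 12 retina libraries, 243 TPM. Col7a1 was at 17.3 TPM there and at 3.31 to 9.62 in the other 11, Col2a1 at 26.3 against 10.8 to 17.9, and Col6a1 at 28.9 against 12.3 to 19.5. The female library of that group had 6.52, 17.2 and 13.9 TPM for the same genes.

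Col13a1 lay between 6.29 and 13.2 TPM in the 12 MON libraries, and between 0.142 and 18 in UON, where the lowest value was that of the male Crush 2W library and the highest that of the female Glaucoma 3D library. Col9a3 lay between 22.7 and 56.5 TPM in MON, with its highest values at 2W after Crush, and between 22.8 and 85.4 in UON, so the regions overlapped for this chain of type IX collagen.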
